A study of Cricetulus griseus with 5 samples.

Results

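The genes described here encode proteins of the spliceosome, Lsm proteins within and outside its U6 ring, and the heterogeneous nuclear ribonucleoproteins (hnRNPs). They were taken by gene symbol: every array probe with a single symbol that begins with Snrp, Hnrnp or Hnrp, or with Sf3a, Sf3b, Srsf, Sfrs, Lsm or Prpf and a digit. This gave 73 of the 16504 named genes, on 81 of the 20868 probes. By stem there were 12 Snrp, 11 Sf3, 10 Srsf, 21 Hnrnp, 14 Lsm and 13 Prpf probes, and 0 probes carried the older stems Sfrs or Hnrp. RNA of A23, a Chinese hamster fibroblast line that lacks thymidine kinase and serves as the recipient of radiation hybrids, was labelled with Cy5 in one channel and Cy3 in the other channel of each of 5 arrays. The arrays form 1 group, replicates 1 to 5, with the same untreated cell line in both channels and the dyes the same way round on each. The series' design text names them as a control for the power of the radiation hybrid study to detect cis ceQTLs, in which a gene's own copy number moves its expression. The labels do not say whether the arrays stand for separate cultures or labellings, so the p-values reflect array-to-array spread alone, and that spread may be technical.

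Pre-mRNA splicing removes introns with small nuclear ribonucleoproteins (snRNPs), particles of an RNA and its proteins. A ring of Sm proteins sits on the U1, U2, U4 and U5 RNAs, a related Lsm ring sits on U6, and the SF3a and SF3b complexes help U2 to hold the branch point. SR proteins, the Srsf genes, mostly promote the use of exons, whereas hnRNPs coat the transcript and often repress exons. Dividing fibroblasts need this machinery at all times. A few members of the stems work elsewhere: Lsm1 in cytoplasmic mRNA decay, Lsm10 and Lsm11 in the U7 particle that processes histone transcripts, and Lsm14a and Lsm14b in P-bodies.

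Values are log ratios of the channels in the units deposited, read as log10, with 0 for equal signals. The sign is that of the deposited number, because the sources used here do not say which dye is on top. Folds assume log10 unless said otherwise. Self-self ratios carry no expression level, so neither the abundance of these transcripts nor the fibroblast identity of the cells could be checked. Both channels held RNA of the same untreated line, so a non-zero mean ratio is not read here as regulation of a gene. Probe symbols are mouse symbols on an array hybridised with hamster RNA, and 69 of the 73 were also found in a RefSeq gene table of the Chinese hamster. Each array had a median of exactly 0 over all probes. Replicate 2 had the widest ratios (SD 0.174 against 0.119 to 0.127 on the others), and replicate 5 the largest share of exact zeros (20.8% of probes against 6.43% to 12.4%).

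The spliceosome and hnRNP probes leaned to positive ratios and varied little between arrays. Of the 81, 59 had a positive mean, 21 a negative mean and 1 was listed at 0, against 51.3% positive and 46.8% negative over all probes. Their median mean ratio was 0.0251, or 1.06-fold (1.02-fold if the values are log2), and the median over all probes was 0.00187. The median of the 81 was positive on each array, at 0.0173, 0.0274, 0.0207, 0.0406 and 0.0137 on replicates 1 to 5. By stem, Snrp stood highest with a median of 0.0356, followed by Sf3 at 0.0269, Prpf at 0.0251, Lsm at 0.0220, Srsf at 0.0188 and Hnrnp at 0.0127. These stem medians lie closer to each other than single probes of a stem do, and their differences were not tested.

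**Figure D1:**
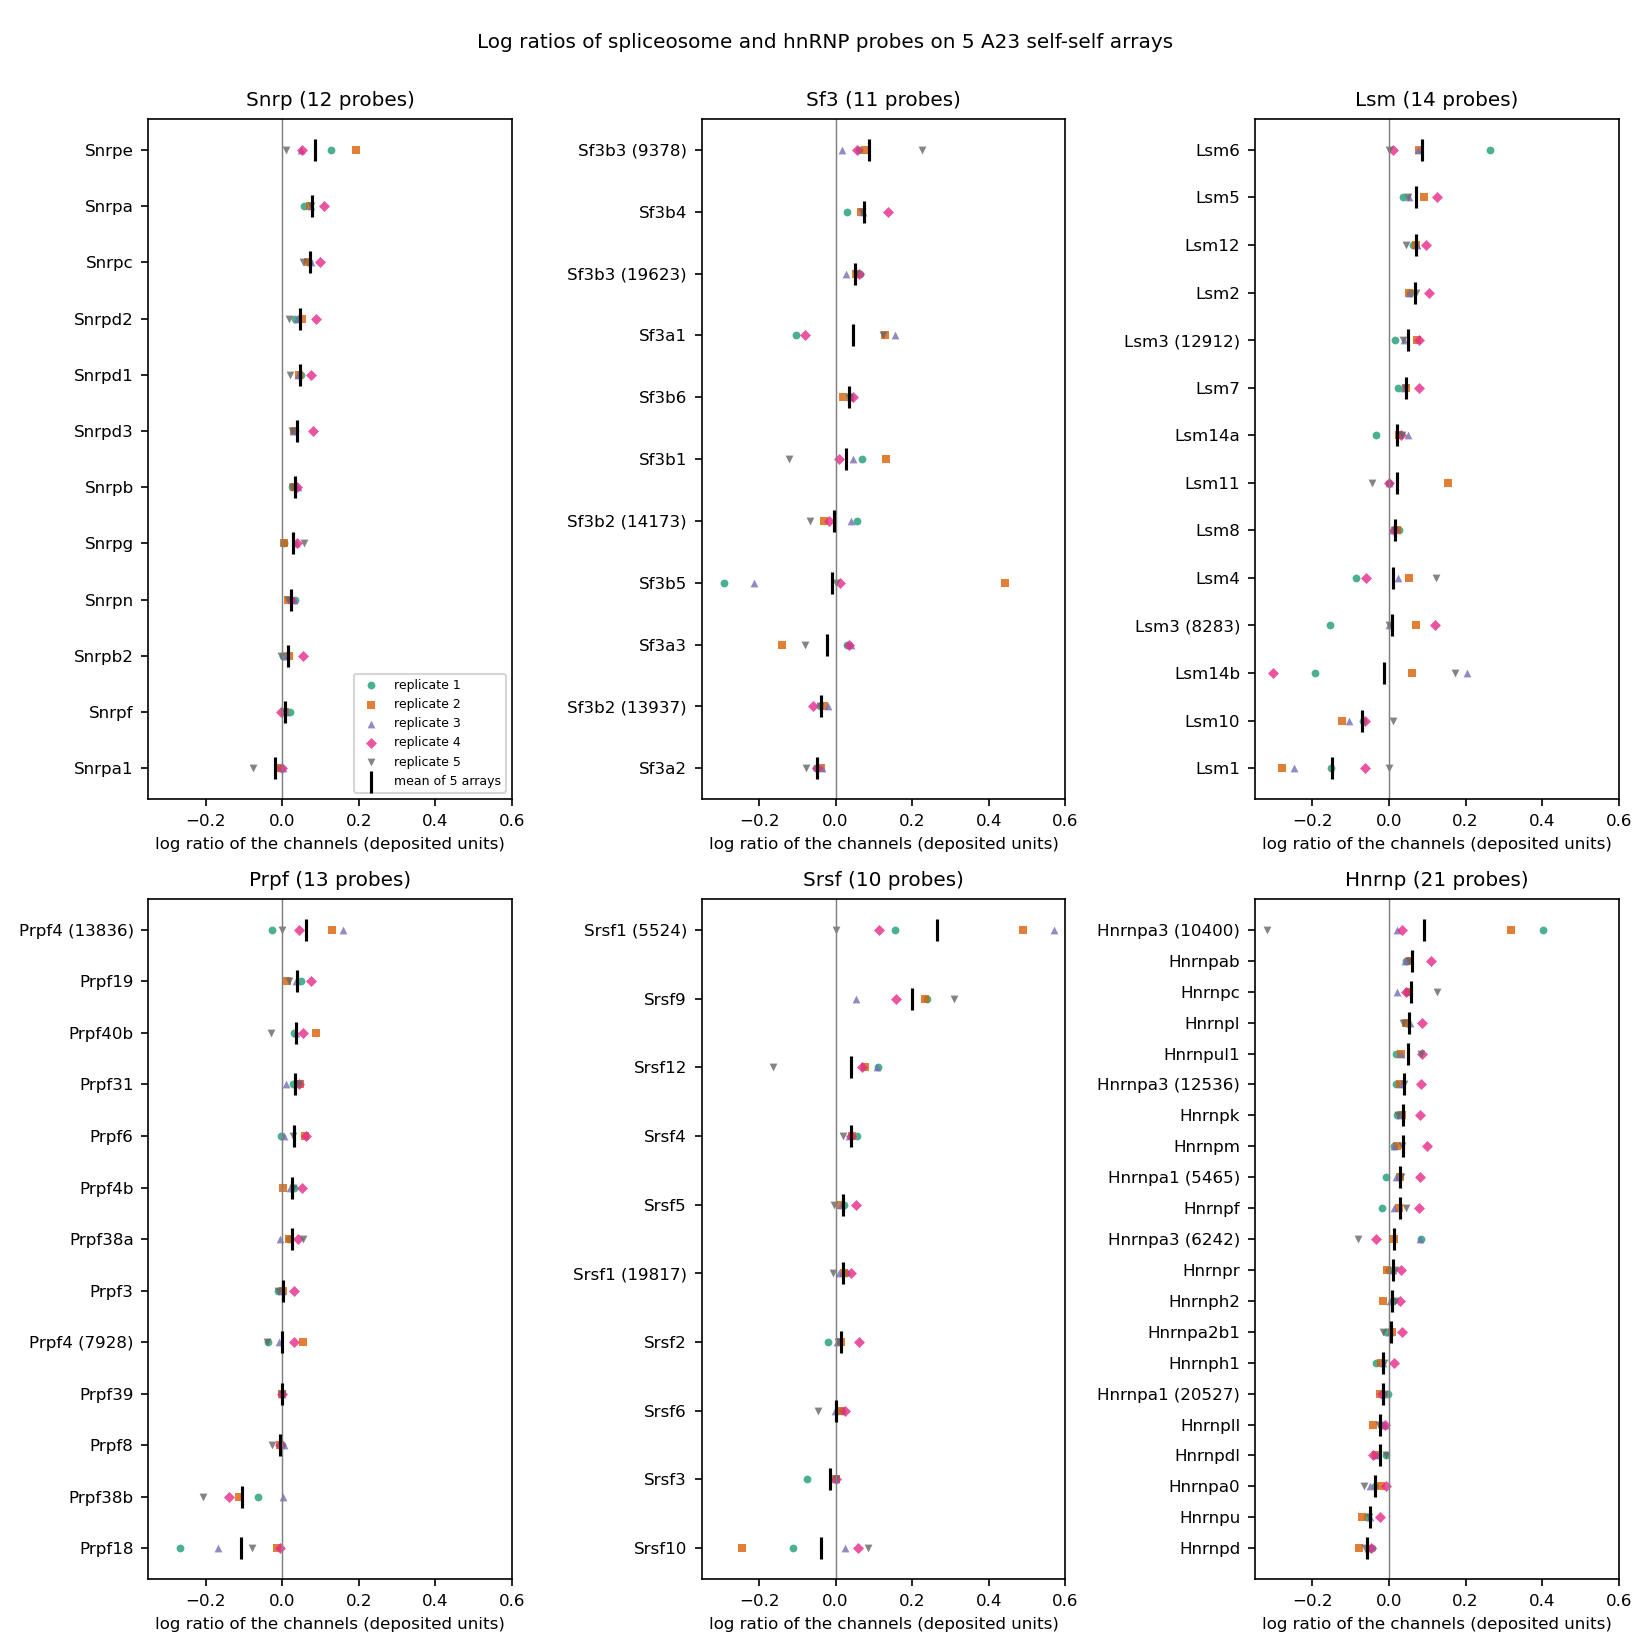
Log ratios of the 81 probes on each of the 5 arrays, in 6 panels by stem and sorted by the mean. The x axis is the log ratio in deposited units, coloured symbols are the replicates, and black bars are means; probe numbers are given for genes with several probes. Most Snrp and Hnrnp probes lie in narrow clusters near 0, while probes such as Srsf1 (5524), Sf3b5, Lsm14b and Hnrnpa3 (10400) spread far wider.

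In limma's moderated test of each mean against 0, with Benjamini-Hochberg adjustment over all 20868 probes, 6 of the 81 probes passed an adjusted p of 0.05, against 3.42% of all probes. They were the U1 proteins Snrpa and Snrpc, Lsm2, Lsm12 and the Sf3b3 probe 19623 with positive ratios (5 probes, background 1.41%), and Hnrnpd with a negative one (1 probe, background 2.00%). At an unadjusted p under 0.05 the count was 39 of 81, or 48.1% (background 27.3%), with 29 positive (13.4%) and 10 negative (13.8%). Ratios of 1 sign on all 5 arrays were found for 40 probes, or 49.4% (background 26.4%). Of these, 31 were positive on each array (background 13.0%) and 9 negative (background 13.4%). A probe with an exact zero cannot have 1 sign on all arrays. Such probes were 11.1% of the 81 and 25.7% of all probes. Among probes with no exact zero, 55.6% of the members and 35.5% of all had 1 sign. In limma 51.4% and 33.9% of them had an unadjusted p under 0.05, and 8.33% and 4.60% were called. Fitted alone, 9.72% of these members and 8.54% of all such probes passed in limma. Each of the 6 calls was lost in limma with any 1 array left out, when at most 63 probes of the whole array passed. None of them exceeded 1.2-fold, and in the test against a minimum of 1.2-fold 0 of the 81 passed, with 1 at an unadjusted p under 0.05.

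Snrpa and Snrpc, proteins specific to the U1 particle, which recognises the 5′ splice site, gave the lowest p-values of the 81. Snrnp70, the other U1-specific protein, lies outside the stems and did not pass (limma adjusted p = 0.0630). Snrpa (the U1 A protein, which binds a stem-loop of U1 RNA) read 0.0574, 0.0733, 0.0740, 0.108 and 0.0746 on replicates 1 to 5. All arrays were positive, with replicate 4 the highest. The mean was 0.0774 ± 0.0184 (SD, n = 5), or 1.2-fold (1.06-fold if log2), with a limma adjusted p of 0.0372. Snrpc (the U1 C protein, which steadies the pairing of U1 with the splice site) read 0.0685, 0.0682, 0.0745, 0.0976 and 0.0541, again positive throughout. Its mean was 0.0726 ± 0.0158 (SD, n = 5; limma adjusted p = 0.0363). The U2 counterparts had smaller means, but grouping by complex was set after values were seen, and this difference was not tested. Snrpa1, which binds a stem-loop of U2 RNA with Snrpb2, had a mean of -0.0194 with a 95% confidence interval of -0.0572 to 0.0184, and Snrpb2 0.0161 (-0.0121 to 0.0444). Snrpa1 read -0.0778 on replicate 5, and its mean without that array was -0.00478.

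Sm proteins form the ring that is common to most snRNPs, and each of the 8 probes for it had a positive mean (background 51.3%). The ring's median was 0.0356, and 7 of the 8 were positive on all arrays (background 13.0%). Snrpb, which encodes SmB, varied least of these 8 probes, at 0.0257, 0.0301, 0.0416, 0.0380 and 0.0260 on replicates 1 to 5. Its mean of 0.0323 ± 0.00720 (SD, n = 5) had a limma adjusted p of 0.0712. Snrpn, which encodes the close SmB relative SmN and is imprinted and enriched in neurons, read 0.0320, 0.0156, 0.0298, 0.0234 and 0.0137, with a mean of 0.0229 ± 0.00818. Both paralogs were positive on every array and overlapped, and Snrpb exceeded Snrpn by 0.00939 ± 0.00884 (SD, n = 5), on 4 of the 5 arrays. Their transcripts are alike, and whether the probes tell them apart is not known here. Snrpd1, Snrpd2 and Snrpd3, the SmD proteins, lay close together at means of 0.0461, 0.0465 and 0.0390. Snrpe (SmE) had the largest mean of the ring, 0.0865, but read 0.128, 0.194, 0.0498, 0.0504 and 0.0108, so its SD of 0.0734 was the widest of the stem. Snrpg (SmG) gave 0.0286 ± 0.0232 (SD, n = 5), and Snrpf (SmF) 0.00756 ± 0.00899, with replicate 4 the 1 array below 0.

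The SF3a and SF3b complexes, which hold U2 at the branch point, had means of both signs, as did the whole array. Of their 11 probes, 6 had a positive mean (54.5%, background 51.3%) and 5 a negative one (background 46.8%). Sf3b3, a scaffold subunit of SF3b, was measured by 2 probes, both positive on all arrays. Probe 19623 read 0.0643, 0.0534, 0.0277, 0.0605 and 0.0532, with a mean of 0.0518 ± 0.0143 (SD, n = 5; limma adjusted p = 0.0499). Probe 9378 lay at 0.0172 to 0.0757 on replicates 1 to 4 and at 0.227 on replicate 5. Sf3b4, another SF3b subunit, had a mean of 0.0737 ± 0.0389 (adjusted p = 0.0779 in limma), and Sf3b6, the small subunit near the branch-point adenosine, 0.0353 ± 0.00954 (adjusted p = 0.0692 in limma). On the negative side stood Sf3a2, a subunit of SF3a, at -0.0514, -0.0375, -0.0347, -0.0483 and -0.0765 on replicates 1 to 5. It was negative on every array, with a mean of -0.0497 ± 0.0166 (SD, n = 5; limma adjusted p = 0.0588). Sf3b2, a subunit of SF3b, had 1 probe at -0.0384 ± 0.0151 (adjusted p = 0.0772 in limma) and another at -0.00459 ± 0.0508.

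Other SF3 probes had spreads too wide for a direction. Sf3b1, the subunit that contacts the branch point and is often mutated in myeloid disease, ran from -0.121 on replicate 5 to 0.133 on replicate 2. Sf3a1 was negative on replicates 1 and 4 (-0.103 and -0.0788) and positive on the others (0.123 to 0.156). Sf3a3 was negative on replicates 2 and 5 and between 0.0306 and 0.0390 on the others. Sf3b5, a small subunit of SF3b, read -0.291, 0.443, -0.212 and 0.0103 on replicates 1 to 4 and was listed at 0 on replicate 5, which gave the largest SD of the 81 probes, 0.285.

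The Lsm2 to Lsm8 ring, which binds the 3′ end of U6 RNA, had a positive mean for each of its 8 probes and a median of 0.0468. Over all probes 51.3% had a positive mean. Of the 8, 5 were positive on all arrays (62.5%, background 13.0%). The means included 0.00754 ± 0.104 for Lsm3 probe 8283 and 0.0111 ± 0.0843 for Lsm4 (SD, n = 5). Lsm2 read 0.0542, 0.0517, 0.0529, 0.104 and 0.0719. Replicate 4 was the highest, and all were above 0, for a mean of 0.0669 ± 0.0222 (SD, n = 5; limma adjusted p = 0.0499). Lsm5 and Lsm7 were positive on all arrays too, with means of 0.0707 ± 0.0361 and 0.0452 ± 0.0202 and adjusted p-values of 0.0758 and 0.0772 in limma. Lsm8, the subunit that sets the U6 ring apart from the decay ring, was smaller and tight at 0.0167 ± 0.00755. Lsm4 had both signs, from -0.0851 on replicate 1 to 0.122 on replicate 5. Lsm6 read 0.265, 0.0791, 0.0746 and 0.0110 on replicates 1 to 4 and was listed at 0 on replicate 5.

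Lsm genes outside the U6 ring had 3 positive and 3 negative means, near the 51.3% positive of all probes. Lsm1, which takes the place of Lsm8 in the cytoplasmic decay ring, had the most negative mean of the 81 probes, -0.148. It read -0.152, -0.278, -0.248 and -0.0629 on replicates 1 to 4 and was listed at 0 on replicate 5 (limma adjusted p = 0.136). Lsm10 of the U7 particle was negative on 4 arrays, with a mean of -0.0690 ± 0.0515 (SD, n = 5; limma adjusted p = 0.129). Its U7 partner Lsm11 was listed at 0 on 3 arrays and read 0.155 on replicate 2 and -0.0453 on replicate 5. Lsm12 read 0.0630, 0.0717, 0.0721, 0.0974 and 0.0454, and its mean of 0.0699 ± 0.0188 (SD, n = 5) passed (limma adjusted p = 0.0446). The P-body genes Lsm14a and Lsm14b had means of 0.0221 ± 0.0319 and -0.0117 ± 0.225, neither larger than its spread, and Lsm14b ran from -0.303 on replicate 4 to 0.204 on replicate 3.

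Among the Prpf genes, which are named after yeast pre-mRNA processing mutants, 0 of 13 probes passed in limma (background 3.42%). At an unadjusted p under 0.05 there were 4, or 30.8%, near the background of 27.3%. Of the 6 probes for the U4/U6.U5 tri-snRNP, 5 had a positive mean (background 51.3%), and the median of the 6 was 0.0160. Prpf8, the protein at the heart of the spliceosome's active site, read 0.000145, -0.00507, 0.00323, -0.00696 and -0.0270, and its mean of -0.00714 had a 95% confidence interval of -0.0273 to 0.0130. Prpf3 of the U4/U6 particle was as close to 0, at 0.00195 ± 0.0167 (SD, n = 5). Prpf31, which binds U4 and is mutated in retinitis pigmentosa, was positive on all arrays at 0.0343 ± 0.0152 (limma adjusted p = 0.0933). Prpf6, which bridges U5 with U4/U6, gave 0.0300 ± 0.0300. Prpf4, a partner of Prpf3, had 1 probe at 0.000482 ± 0.0416 and another (13836) that ran from -0.0269 on replicate 1 to 0.159 on replicate 3 and was listed at 0 on replicate 5. Prpf19, the ubiquitin ligase of the complex that activates the spliceosome, and the kinase Prpf4b were positive throughout, at 0.0380 ± 0.0254 and 0.0266 ± 0.0175. Prpf38a gave 0.0251 ± 0.0237 and Prpf40b 0.0361 ± 0.0420.

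The most negative Prpf means were larger in size than any positive one of the stem. Prpf18, which acts in the second catalytic step, was negative on every array, but its values ran from -0.268 on replicate 1 to -0.00718 on replicate 4 (limma adjusted p = 0.206). Prpf38b read -0.0647, -0.113, 0.00192, -0.138 and -0.207, a mean of -0.104 ± 0.0784 (SD, n = 5; limma adjusted p = 0.126). Prpf39, a homologue of a yeast U1 protein, was listed at 0 on all 5 arrays, as were 1.97% of all probes, so it yields no ratio.

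SR protein probes had 8 positive means of 10 (background 51.3%) but 0 calls in limma (background 3.42%). At an unadjusted p under 0.05 they had 3, or 30%, near the background of 27.3%. They held the largest ratios of the 81 probes. Srsf9 read 0.240, 0.234, 0.0543, 0.157 and 0.309, all positive and of 1.58-fold at the mean. With a mean of 0.199 ± 0.0970 (SD, n = 5) its limma adjusted p was 0.0644. Srsf1, the SR protein long known as ASF/SF2, had a probe (5524) at 0.156, 0.488, 0.570 and 0.113 on replicates 1 to 4 that was listed at 0 on replicate 5. Its other probe (19817) read 0.0278, 0.0226, 0.00900, 0.0409 and -0.00813, a mean of 0.0184 ± 0.0187.

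The remaining SR genes were smaller or irregular. Srsf4 was positive on each array at 0.0390 ± 0.0127 (SD, n = 5; limma adjusted p = 0.0683). Srsf2, Srsf5 and Srsf6, exonic splicing activators like Srsf1, had means of 0.0132 ± 0.0289, 0.0192 ± 0.0218 and 0.00199 ± 0.0278, each within its spread. Srsf10, which in its dephosphorylated form represses splicing, ran from -0.245 on replicate 2 to 0.0838 on replicate 5. Srsf12 lay at 0.0677 to 0.110 on replicates 1 to 4 and at -0.164 on replicate 5. Srsf3, the smallest SR protein, read -0.0737 on replicate 1 and was listed at 0 on the other 4 arrays.

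Of the 21 Hnrnp probes, 1 passed in limma, with a negative ratio. That is 4.76%, near the 3.42% of all probes and the 4.60% of probes with no exact zero. Positive means were found for 14 (66.7%, background 51.3%) and negative means for 7. On all arrays 7 were positive (33.3%, background 13.0%) and 6 negative (28.6%, background 13.4%). None of the 21 had an exact zero, and among all such probes these backgrounds were 17.5% and 18.0%. Hnrnpd (AUF1, which binds AU-rich elements and speeds mRNA decay) read -0.0431, -0.0782, -0.0552, -0.0478 and -0.0616 on replicates 1 to 5. Its mean was -0.0572 ± 0.0137 (SD, n = 5), or 1.14-fold (1.04-fold if log2), with a limma adjusted p of 0.0464. Its paralog Hnrnpdl was negative on every array as well, at -0.0244 ± 0.0159 (limma adjusted p = 0.166). Hnrnpab, a close relative, was positive on every array, at 0.0454, 0.0558, 0.0415, 0.111 and 0.0524, with a mean of 0.0612 ± 0.0282 (limma adjusted p = 0.0707).

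Pairs of similar hnRNPs also differed in sign elsewhere. Hnrnpu, the scaffold attachment factor that binds chromatin and nuclear RNA, read -0.0561, -0.0701, -0.0492, -0.0223 and -0.0518 (mean -0.0499 ± 0.0174, SD, n = 5; limma adjusted p = 0.0605). Hnrnpul1, its relative, was positive on every array, from 0.0180 to 0.0869. Hnrnpl, which binds CA repeats, read 0.0435, 0.0454, 0.0540, 0.0860 and 0.0372 (mean 0.0532 ± 0.0193; limma adjusted p = 0.0599). Its paralog Hnrnpll, a regulator of CD45 splicing in T cells, was negative on every array at -0.0220 ± 0.0131. In each of these pairs the 5 values of one gene lay apart from the 5 of the other. Hnrnph1 and Hnrnph2, which bind G-runs, had means of -0.0144 ± 0.0165 and 0.00835 ± 0.0162. Hnrnph1 was the lower on all 5 arrays, by a mean difference of -0.0228 ± 0.0139, although their ranges overlapped. These pairs were picked out after their values were seen, apart from Hnrnph1 and Hnrnph2, and their differences were not tested.

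Further hnRNP genes ranged from -0.0356 to 0.0583 at the mean. Hnrnpc, which binds U-tracts, was positive throughout at 0.0583 ± 0.0393 (SD, n = 5), and so were Hnrnpk, which binds C-rich sequence, at 0.0373 ± 0.0248 and Hnrnpm at 0.0363 ± 0.0356. Hnrnpa0 was negative throughout at -0.0356 ± 0.0229. Hnrnpf gave 0.0290 ± 0.0355, Hnrnpr 0.0106 ± 0.0145 and Hnrnpa2b1, an RNA-trafficking hnRNP, 0.00506 ± 0.0189, all within their spread.

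**Figure D2:**
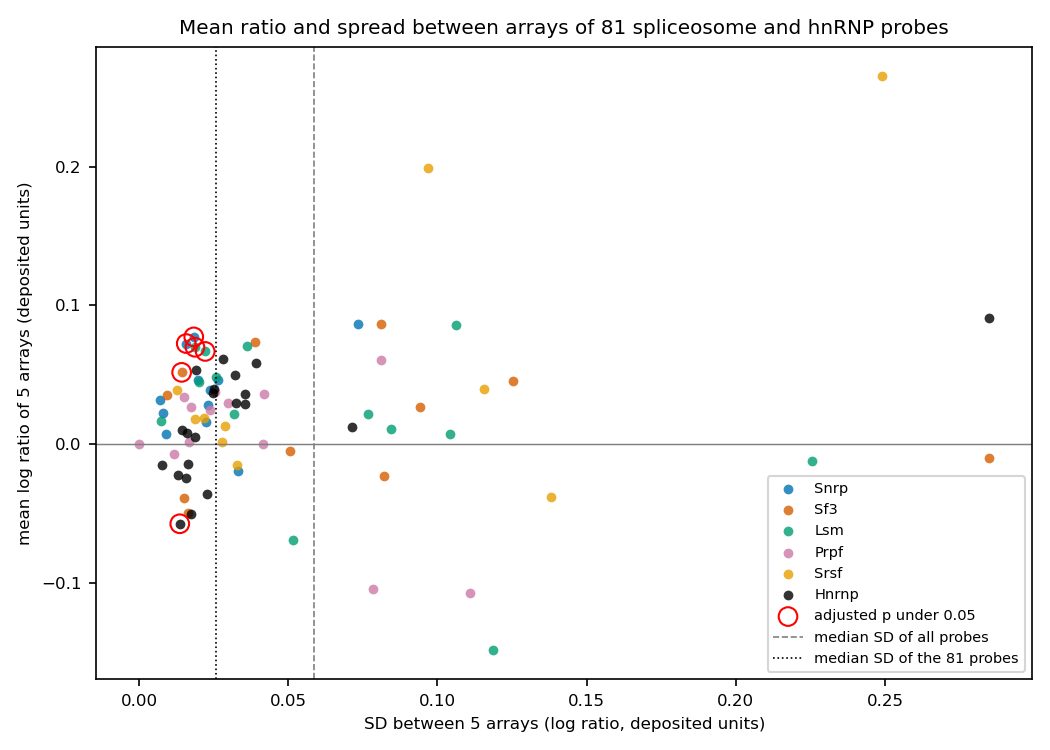
Mean log ratio over 5 arrays (y axis, deposited units) against the SD between arrays (x axis) for the 81 probes, coloured by stem; red rings mark the 6 probes with an adjusted p under 0.05. The 6 ringed probes have SDs of 0.0137 to 0.0222, to the left of the median of the 81 (dotted line, 0.0259) and of all probes (dashed line, 0.0588).

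Probes differed widely in their spread between arrays. The SD over 5 arrays had a median of 0.0259 for the 81 probes and 0.0588 for all probes, and 60 of the 81 (74.1%) lay below the latter. A gap ran from 0.0515 to 0.0715, with 60 probes below and 21 above it, and 43.7% of all probes had an SD above 0.07. The share below the series' median was 11 of 12 for Snrp, 19 of 21 for Hnrnp and 10 of 13 for Prpf. For Srsf it was 6 of 10, for Lsm 8 of 14 and for Sf3 6 of 11. The tightest 5 with a ratio were Snrpb, Lsm8, Hnrnpa1 (probe 20527), Snrpn and Snrpf, at SDs of 0.00720 to 0.00899. The widest 5 were Sf3b5, Hnrnpa3 (probe 10400), Srsf1 (probe 5524), Lsm14b and Srsf10, at 0.285 down to 0.138. Since the arrays were made to gauge power, the spread was also turned into the smallest mean ratio that 5 arrays would detect with a power of 0.8 at alpha 0.05, unadjusted. At the median it was 1.11-fold for the 81 probes and 1.26-fold for all probes, from 1.09-fold for Snrp and Hnrnp to 1.22-fold for Sf3. These folds rest on the spread alone and take no account of the non-zero means of the same arrays. With the same line in both channels, 48.1% of the 81 probes and 27.3% of all probes had an unadjusted limma p under 0.05. A fold of this size is thus not one that could be told from such an offset. For single probes it ran up to 3.02-fold, for Sf3b5.

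Exact zeros, which may be ratios that were not estimated, touched 9 of the 81 probes (11.1%, background 25.7%). These were Lsm1, Lsm3 (probe 8283), Lsm6, Lsm11, Prpf4 (probe 13836), Prpf39, Sf3b5, Srsf1 (probe 5524) and Srsf3. Snrp and Hnrnp had none. Of the 9, 7 were also among the 21 probes with an SD above 0.07. On replicate 5, 8 of these 9 were at 0, and without that array 4 of the 81 probes had a zero.

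Several genes were measured by more than one probe, and these probes often differed in their spread. The 7 such genes were Hnrnpa1, Hnrnpa3, Lsm3, Prpf4, Sf3b2, Sf3b3 and Srsf1, with 15 probes. Within a gene the SD of the widest probe was 1.95 times (Prpf4) to 13.3 times (Srsf1) that of the tightest. Hnrnpa1, an abundant hnRNP that represses exons, was the 1 gene with means of both signs: probe 5465 read -0.00887, 0.0291, 0.0184, 0.0813 and 0.0302, and probe 20527 read -0.00332, -0.0239, -0.0161, -0.0189 and -0.0129. For Hnrnpa3, an A/B-type hnRNP, probe 12536 was positive throughout at 0.0401 ± 0.0252 (SD, n = 5). Its probe 10400 ran from -0.319 on replicate 5 to 0.401 on replicate 1, and probe 6242 from -0.0801 to 0.0846. Lsm3 was positive on all arrays by probe 12912, at 0.0485 ± 0.0259, while probe 8283 had both signs and 2 zeros. Averaging the probes of a gene before the fit left 4 of the 73 genes called in limma (background 2.45% of 16504 genes). These were Hnrnpd, Lsm12, Snrpa and Snrpc. Sf3b3 had an adjusted p of 0.0981 in that fit.

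**Figure D3:**
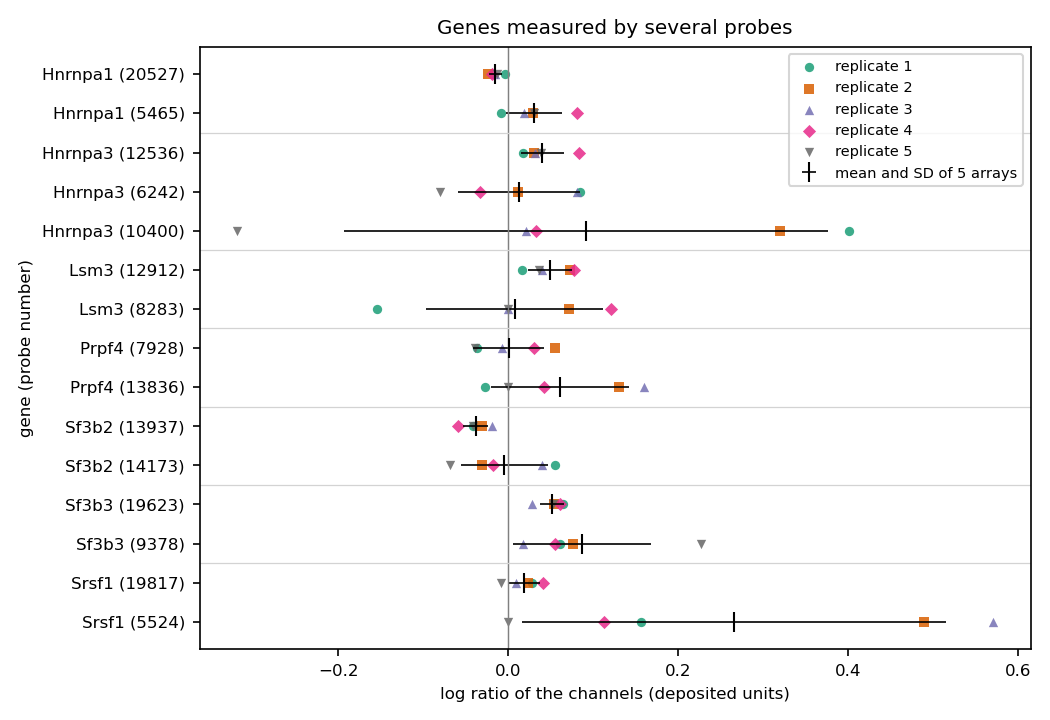
Log ratios (x axis, deposited units) of the 15 probes of 7 genes measured by several probes, with the probe number in brackets; symbols are the replicates, and bars give the mean and SD of 5 arrays. Within most genes one probe is tight and another is wide, most clearly for Srsf1 and Hnrnpa3.

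Replicate 4 moved with the positive ratios. Among the 80 probes with a ratio it was the highest of the 5 arrays for 38 (47.5%), against 19.1% of all probes. For Hnrnp this was 15 of 21 probes and for Snrp 6 of 12, while for Sf3 it was 2 of 11. The median of the 81 was 0.0406 on replicate 4 and 0.0137 to 0.0274 on the others. Without replicate 4 the median mean ratio was 0.0219 and the median SD 0.0182, in place of 0.0251 and 0.0259. What sets this array apart was not tested.

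**Figure D4:**
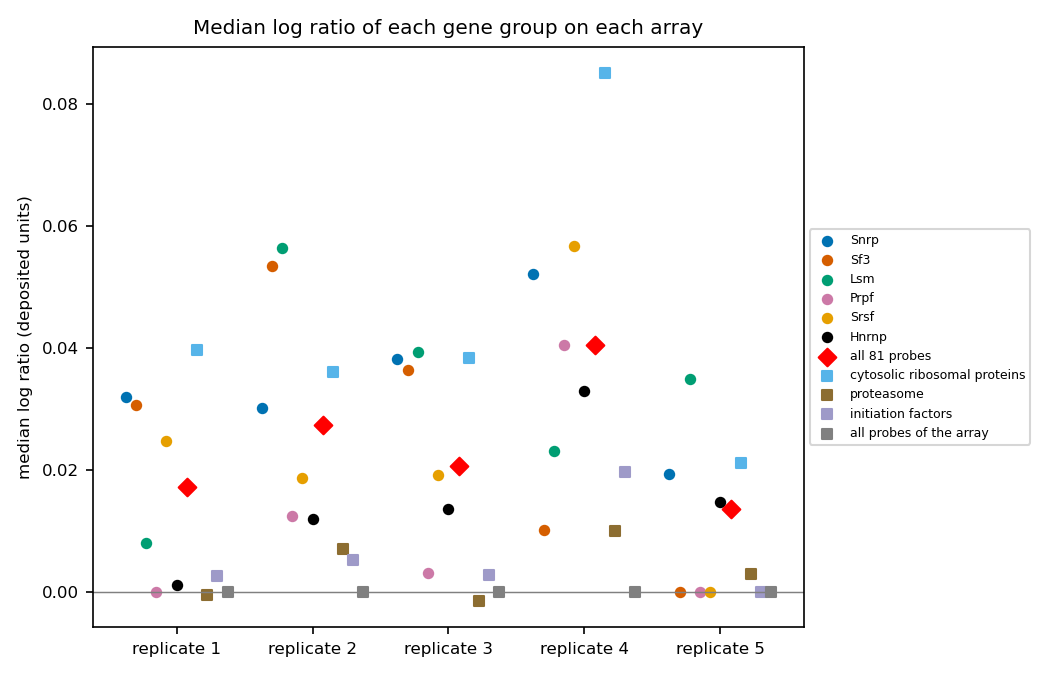
Median log ratio (y axis, deposited units) of each stem, of all 81 probes and of comparison groups on replicates 1 to 5 (x axis). The 81 probes (red diamonds) lie above 0 on each array and highest on replicate 4, where cytosolic ribosomal protein genes reach 0.0851.

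Housekeeping groups of other kinds ranged in their share of positive means. It was 62 of 77 probes for cytosolic ribosomal protein genes (80.5%), 33 of 55 for translation initiation factor genes (60.0%) and 22 of 40 for proteasome genes (55%), against 51.3% of all probes. Cytosolic ribosomal protein genes (77 probes) had a median mean ratio of 0.0421 and a median SD of 0.0304, with replicate 4 the highest array for 63 of the 77. Translation initiation factor genes (55 probes) had 0.0166 and 0.0310, and proteasome genes (40 probes) had 0.00572 and 0.0232. The spliceosome and hnRNP probes thus stood between the ribosomal and initiation factor genes in their median. These differences were not tested. The lean to positive means was not particular to splicing genes, as cytosolic ribosomal protein genes had it too. Nor was the small spread between arrays, which proteasome genes shared.

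Splicing genes that the stems leave out had a lower median. Of 170 such genes listed, 153 had a probe, 166 probes in all, with a median mean ratio of 0.00490 and 93 positive and 71 negative means. In limma 7 passed (4.22%, background 3.42%), 4 positive and 3 negative. At an unadjusted p under 0.05 there were 68 of 166 (41.0%, background 27.3%), 45 positive and 23 negative, with 16 of 32 for snRNP proteins with other symbols and 25 of 50 for hnRNP-like proteins. By list the calls were 4 of 50 probes for hnRNP-like and regulatory RNA-binding proteins and 1 of 32 for snRNP proteins with other symbols. Catalytic-step and Prp19-complex proteins had 1 of 39, and SR-related proteins and SR kinases 1 of 23. The exon junction complex (9 probes) and the SMN complex with snRNP assembly factors (13 probes) had 0 each in limma, with 3 each at an unadjusted p under 0.05. Medians ran from -0.00826 for the SMN complex to 0.0325 for the exon junction complex.

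The most repeatable of these was Elavl1 (HuR, which stabilises AU-rich mRNAs), at 0.112, 0.0888, 0.0964, 0.0993 and 0.0956 on replicates 1 to 5. Its mean of 0.0983 ± 0.00838 (SD, n = 5) had a limma adjusted p of 0.0166. Matr3, a nuclear matrix protein that binds RNA, was negative at -0.153 ± 0.0382 (adjusted p = 0.0299 in limma), and so were Sfswap at -0.0830 ± 0.0277 and the U5 protein gene Txnl4a at -0.202 ± 0.0772. Pcbp4, a poly-C binding protein, Celf1, a CUG-binding splicing regulator, and Snw1, a spliceosome component, were positive at 0.0693 ± 0.0159, 0.0579 ± 0.0134 and 0.0462 ± 0.0101. Snrnp70, the third U1-specific protein, and Snrnp200, the U5 helicase, did not pass and were chosen for mention after their values were seen. Snrnp70 was positive on all arrays at 0.0450 ± 0.0150 (limma adjusted p = 0.0630), and Snrnp200 negative on all arrays at -0.0364 ± 0.0117 (limma adjusted p = 0.0717).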

How the data were processed

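Total RNA of A23 cells was labelled by direct incorporation, 20 µg per labelling per the labels' protocols, and hybridised to 5 arrays with 2 channels each. The deposited table gives 1 log ratio per probe and array. Its base is not stated. Log10 was assumed for the deposited ratios because each array is centred at 0 within a narrow range with many exact zeros, the form of Agilent's ratio column. Log2 ratios could have these features too, so they do not tell the bases apart, and all folds given as log10 rest on this assumption. Image analysis, background correction and dye normalization are not given in the sources used here. No intensity was used, so the number of arrays limits the precision. The table holds 0 columns of other samples, and 0 pairs of arrays were identical.

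Ratios of all 20868 probes were multiplied by 3.32 to log2 and fitted with an intercept in limma 3.58.1 (R 4.3.3; lmFit, eBayes), testing each mean against 0 with Benjamini-Hochberg adjustment at 0.05. The fit was tested on simulated data. Values are printed in deposited units as mean ± SD, with 95% intervals from the moderated fit. Gene symbols came from the platform annotation: 17786 probes had 1 symbol, 16 several and 3066 none. No probe or genome sequence was used here.

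The members, lists and comparisons were chosen with earlier results of these data known. Probes named were, by a fixed rule, those past the threshold and the 20 lowest p-values, the extremes of each stem, the 5 widest and 5 tightest SDs, members with exact zeros, genes with several probes and 3 paralog pairs, and outside the stems the listed genes past the threshold. Other members were described for completeness, and grouping by complex and the SD limit of 0.07 were set after values were seen. Alternatives were scaling, quantile normalization, zeros as missing, robust and weighted fits, other moderation, gene averages, a minimum fold and leaving out each array.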

Additional observations from a re-analysis of the deposited data

Results flagged for a closer look

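In 9 of the 80 member probes with a ratio, 1 array stood apart from the other 4 by Dixon's test at its 95% limit, a gap that chance gives in about 1 of 20 groups. Over all probes with a ratio it was 2896 of 20456 (14.2%), a higher share than among the members (11.2%). Replicate 4 was the high one for 4 of them: Hnrnpab at 0.111, Hnrnpk at 0.0807, Hnrnpm at 0.0983 and Snrpd3 at 0.0812. Replicate 5 stood apart for 3, with the Sf3b3 probe 9378 at 0.227, Snrpa1 at -0.0778 and Srsf12 at -0.164. Replicate 2 stood apart for Lsm11 at 0.155, where 3 arrays were listed at 0. For Srsf3 replicate 1, at -0.0737, was the 1 array not listed at 0.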

How the results depend on the processing

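The count of 6 called probes depended on the fit. In limma it was 0 with any array left out (29 to 39 at an unadjusted p under 0.05) and 0 with zeros as missing (35). With robust empirical Bayes it was 0 (36), and after quantile normalization 1, or 1.23%. Of all probes, 0.0192% to 0.302% passed with an array left out and 1.86% with zeros as missing. The shares were 1.2% with robust empirical Bayes and 2.53% after quantile normalization. It rose to 13 with array weights (7.58% of all probes passed) and 34 with a robust linear fit, in which 4019 of 20456 probes of the array passed. Against a minimum of 1.2-fold it was 0 under the log10 reading (1 at an unadjusted p under 0.05) and 0 under the log2 reading (0). Scaling gave the same 6 probes, with 4.58% of all probes passing. Without variance moderation 4 passed, 3 of them among the 6 (1.82% of all probes). With only probes that have no exact zero 7 of 72 did, the 6 included. That is 9.72%, against 8.54% of all such probes.

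The median mean ratio ranged from 0.0219 to 0.0334 with single arrays left out, and 42 to 51 probes had 1 sign over the 4 arrays then used (30.3% to 35.8% of all probes). With zeros as missing 43 of 79 had 1 sign (37% of all probes), and scaling and quantile normalization each gave 40. The median SD ranged from 0.0182 (without replicate 4) to 0.0294, and probes with an exact zero from 4 (without replicate 5) to 9. Of the 81 probes' values under alternatives, 999 kept direction and side of the threshold, 52 lost a call, 37 gained one and 34 turned sign. The 14 probes that turned were uncalled. With single arrays left out the ranges were -0.0657 to 0.0612 for Lsm14b, -0.00505 to 0.00515 for Prpf3, -0.00376 to 0.0137 for Srsf6, -0.0113 to 0.0387 for Lsm11, -0.00532 to 0.0358 for Hnrnpa3 probe 6242, -0.123 to 0.0603 for Sf3b5, -0.0167 to 0.0352 for Lsm4, -0.0132 to 0.0104 for Prpf4 probe 7928, -0.0681 to 0.0140 for Srsf10, -0.0209 to 0.0481 for Lsm3 probe 8283, -0.00244 to 0.0100 for Hnrnpa2b1, -0.0194 to 0.0113 for Sf3b2 probe 14173 and -0.0382 to 0.00649 for Sf3a3. Array weights turned Lsm14b (0.0143), Lsm4 (-0.00106), Prpf4 (-0.00462), Lsm3 (-0.00994), Sf3b2 (0.0156) and Sf3a3 (0.00439). Scaling turned Prpf4 (-0.00409), Lsm3 (-0.00316) and Sf3b2 (0.00142), and quantile normalization Prpf3 (-0.000672), Prpf4 (-0.00417) and Sf3b2 (0.00389). The gene average of Hnrnpa1 was 0.00751, against a negative mean for probe 20527. The cause was not tested. No paired analysis was possible because all arrays form 1 group.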
